A study of Chlorocebus sabaeus with 18 samples.

Results

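A set of 8 genes of autophagy and the lysosome was followed across treated COS-7 cells, a kidney cell line of the African green monkey. The members were chosen by name and human Ensembl ID, with earlier results of these data known. All 8 were found among the 19997 genes or overlapping gene groups of the count tables. They were the cargo receptor SQSTM1, the autophagosome genes MAP1LC3B, GABARAPL1 and WIPI1, the initiating kinase ULK1, the regulator TFEB, and the lysosomal genes LAMP1 and CTSD. All 8 were among the 14969 genes tested, those whose normalised count reached 10 in at least 3 libraries. The study sequenced total RNA of 18 samples in 6 groups of 3. CTL were control COS-7 cells, CGG were cells given 60 CGG repeats in the 5′ leader of FMR1, GFP_TRA cells overexpressed the splicing factor TRA2A, siTRA cells had TRA2A knocked down, and CGG_siTRA cells had both the repeat and the knockdown. The sixth group, CGG_TRA, combined the repeat with overexpression and is represented here only in the authors' splicing tables. None of the groups is labelled as an empty vector or a control siRNA, so a named treatment and the act of delivering it cannot be told apart in any comparison with CTL. The same holds between treated groups that differ in what they were given. All groups come from the same cell line. The titles of some CGG_siTRA samples name different rounds and do not say what a round was. No count column carries the round, so it was not fitted. For the rest, the labels do not tell whether the samples of a group were grown separately. A p-value here therefore covers no more than the spread among the libraries sequenced, which may be technical.

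Autophagy encloses cytoplasmic cargo in a double membrane, the autophagosome, which then fuses with the lysosome, where hydrolases digest the content. The kinase ULK1 starts the process, WIPI1 binds the lipid that marks the forming membrane, and LC3 and GABARAP proteins are attached to that membrane, where receptors such as SQSTM1 (p62) bind them together with ubiquitinated cargo. TFEB is a transcription factor that activates many genes of both compartments when it enters the nucleus, and SQSTM1 is also a known target of the oxidative stress factor NRF2.

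Library totals, summed over exon bins, ran from 121142115 to 203957869 counts. The targeted gene (ENSG00000164548.10, TRA2A) lay at a normalised count of 17097 ± 166 in CTL and 16252 ± 701 in CGG, rose to 204614 ± 17346 in GFP_TRA, and was reduced to 3914 ± 917 in siTRA and 4274 ± 221 in CGG_siTRA (SD, n = 3 each), as the labels say. Levels below are the authors' normalised counts summed over a gene's bins, and log2 changes come from edgeR with its own scaling (TMM). With the authors' scaling the median log2 change of all genes was -0.11 in CGG_siTRA vs CTL and -0.093 in CGG_siTRA vs CGG, so the groups with the siRNA read slightly lower in levels than in log2 changes. Under that scaling the genes called split into 1161 higher and 4041 lower in CGG_siTRA vs CTL, where TMM gave 2221 and 2400, and into 1971 and 3654 in siTRA vs CTL, where TMM gave 2702 and 2981. Library b of siTRA stood apart from its group for several members and is named for some of them. It had the lowest total (121142115). In SQSTM1 and GABARAPL1 it read low in bins nearer the 5′ end and high nearer the 3′ end. SQSTM1 bin E018 read 1024, 595 and 1311 in siTRA libraries a, b and c, and E041 read 911, 1434 and 889. GABARAPL1 bin E014 read 116, 66.4 and 145, and E046 read 1304, 1571 and 1261. These bins were chosen after they were seen, and how this bears on bin values of siTRA was not tested.

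In each of the 4 treated groups the same 6 members, SQSTM1, MAP1LC3B, GABARAPL1, WIPI1, LAMP1 and CTSD, were higher than in CTL, and ULK1 and TFEB were not called. No member was called lower. Called means an adjusted p under 0.05 in the quasi-likelihood test of edgeR, adjusted over the 14969 genes by Benjamini and Hochberg's method. The background of genes called higher was 11.9% in CGG vs CTL, 14.5% in GFP_TRA vs CTL, 18.1% in siTRA vs CTL and 14.8% in CGG_siTRA vs CTL. The median log2 change of the 8 members was 0.56, 0.44, 0.43 and 0.50 in these comparisons, beside 0.008, 0.004, -0.005 and 0.013 over all genes tested. These comparisons share the 3 CTL libraries, so a low reading in CTL would raise all of them together. The members were chosen with earlier results of these data known, so their excess over the background is not evidence from an unselected set. For 6 of 8 members all 12 treated libraries lay above all 3 CTL libraries, as they did for 4.81% of genes tested, and 4.73% of genes were called higher in all 4 comparisons. In bulk RNA a rise in every cell and a larger rise in some cells cannot be told apart.

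**Figure D1:**
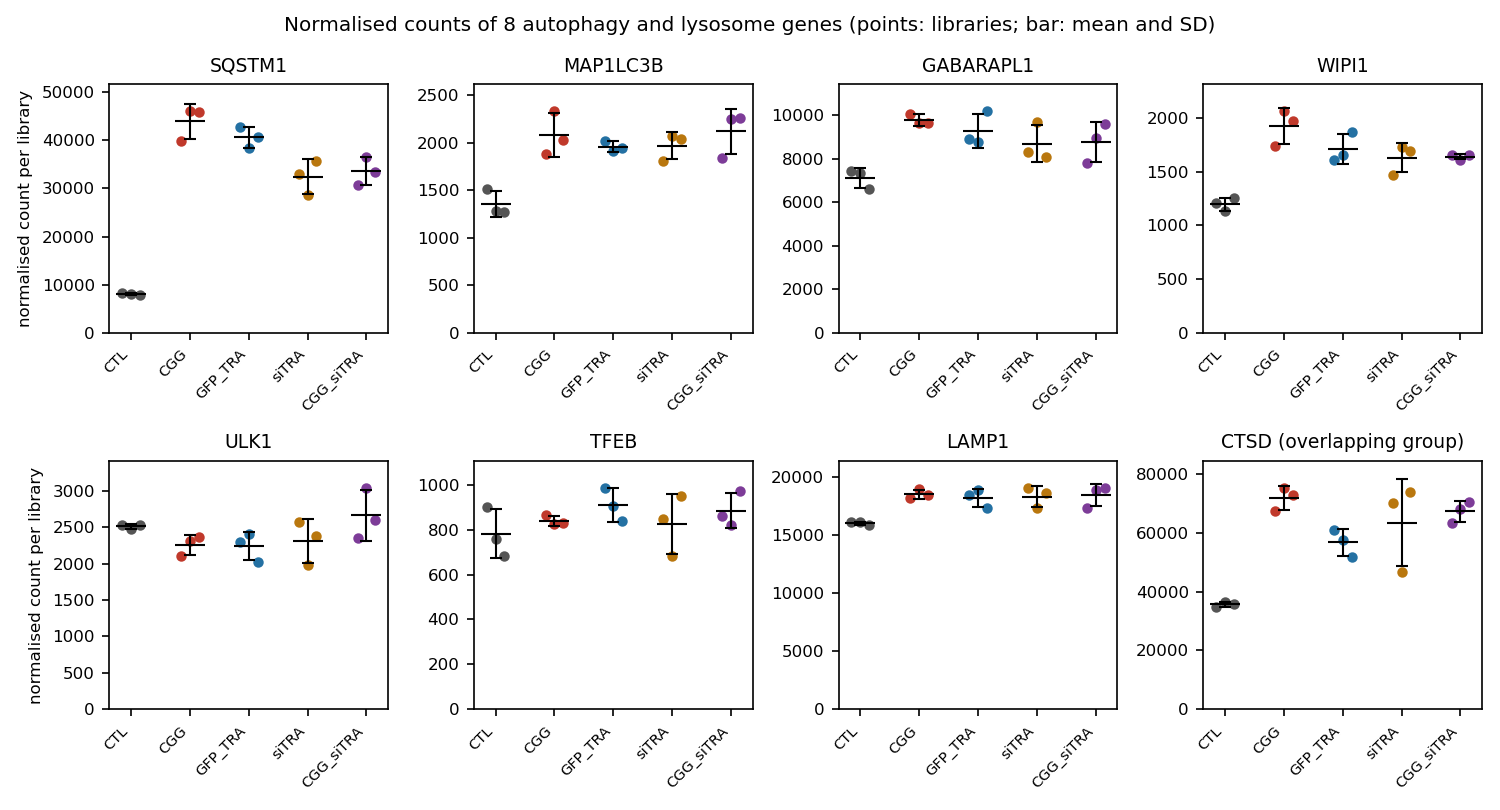
Normalised count (vertical axes, starting at 0) of each member in every library, by group, with the mean and SD over 3 libraries. In 6 panels all treated libraries lie above CTL, with the widest gap for SQSTM1 (8031 in CTL, 32481 to 43946 in the treated groups), while in the ULK1 and TFEB panels treated and CTL points lie at similar heights.

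**Figure D2:**
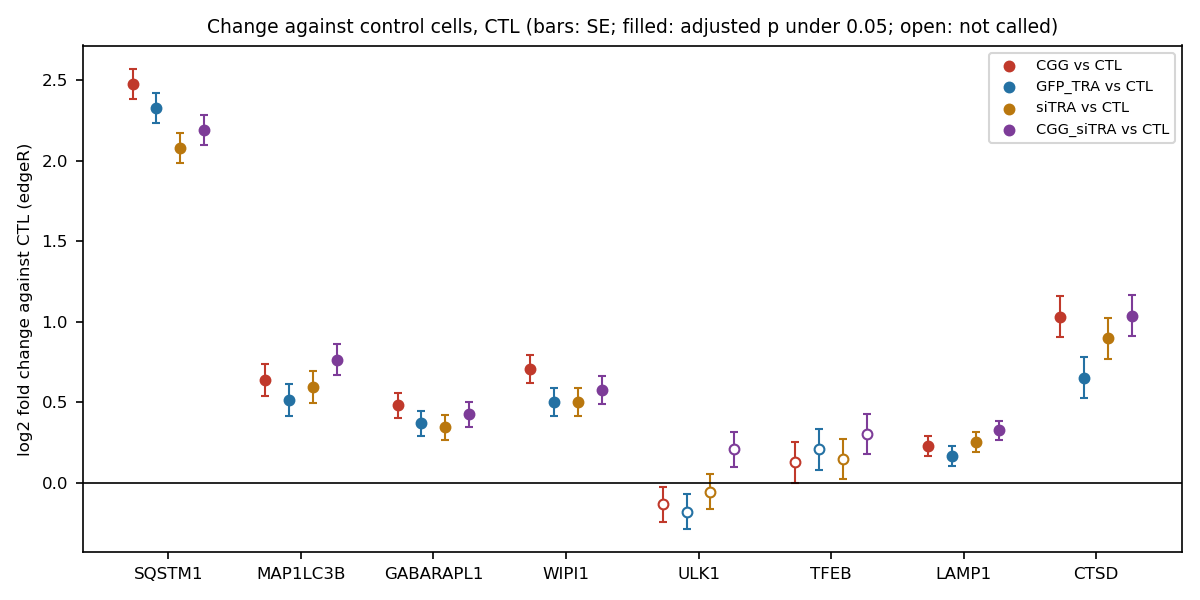
Log2 fold change of each member against CTL in the 4 treated groups, with its SE as a bar; filled points passed an adjusted p under 0.05 in edgeR and open points did not. SQSTM1 lies between 2.08 and 2.48, CTSD between 0.65 and 1.04, and the open points are those of ULK1 and TFEB.

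SQSTM1 (ENSG00000161011.19), the receptor that links ubiquitinated cargo to the autophagosome, changed most among the members. Its CTL libraries read 8176, 8137 and 7780 (normalised counts, here and for the following genes, for libraries a, b and c). In CGG it read 39811, 46105 and 45923, and in GFP_TRA 42785, 38358 and 40738. In siTRA it read 32952, 28699.8 and 35791, and in CGG_siTRA 30789, 36645 and 33386. No treated library came within 3 times the highest CTL value, and the treated groups lay much closer to one another than to CTL. The log2 changes against CTL were 2.48 (SE 0.09, adjusted p = 4.34e-12) in CGG, 2.33 (SE 0.09, adjusted p = 1.45e-11) in GFP_TRA, 2.08 (SE 0.09, adjusted p = 3.09e-11) in siTRA and 2.19 (SE 0.09, adjusted p = 1.89e-11) in CGG_siTRA, by edgeR with Benjamini-Hochberg adjustment. Ranked by rise among the 14969 genes, SQSTM1 was number 38 in CGG, 34 in GFP_TRA, 73 in siTRA and 56 in CGG_siTRA. It rose both where TRA2A was raised and where it was lowered.

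The order of the SQSTM1 means was CGG (43946 ± 3582), GFP_TRA (40627 ± 2216), CGG_siTRA (33607 ± 2934), siTRA (32481 ± 3569) and CTL (8031 ± 219; SD, n = 3). Neighbours in this order among the treated groups were not separated by the test. The adjusted p was 0.34 for CGG vs GFP_TRA, 0.292 for CGG_siTRA vs GFP_TRA and 0.503 for CGG_siTRA vs siTRA (edgeR, Benjamini-Hochberg). CGG and siTRA did differ, by a log2 value of 0.40 (SE 0.09, adjusted p = 0.00562, edgeR), and their libraries did not overlap. In that comparison, added after the data were seen, SQSTM1 was the 1 member called, with 15.7% of all genes. WIPI1 libraries did not overlap there either, and WIPI1 was not called (adjusted p = 0.115, edgeR). The share of all genes without overlap is not given for CGG vs siTRA, so the lack of overlap adds nothing to the test. The comparison was run with the main settings and all libraries only. Library b of siTRA was the lowest of its group for SQSTM1, and how the call depends on it was not tested. Without that library SQSTM1 lost its call in GFP_TRA vs siTRA (adjusted p = 0.235, edgeR).

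The rise of SQSTM1 lay in the bins of its body, and the sum of the first 6 bins upstream stayed much closer to CTL. SQSTM1 spans chromosome 5, 179806398 to 179838078, plus strand (GRCh38.p10), in 35 bins, the pieces into which the counting cut its annotated exons. The 6 upstream bins, 179806398 to 179812406, together held 44.1 ± 18.6 in CTL, 64.6 ± 14.99 in CGG, 56.8 ± 4.8 in GFP_TRA, 62.0 ± 31.7 in siTRA and 60.0 ± 3.64 in CGG_siTRA (SD, n = 3). That is 1.29 to 1.47 times CTL, and libraries of every treated group overlapped CTL. The 26 bins from 179820104 to 179838078 lay at 5.50 times CTL in CGG, 5.08 in GFP_TRA, 4.06 in siTRA and 4.20 in CGG_siTRA. The other 3 bins, E007, E010 and E011 between these blocks, had means of 0.686, 0.383 and 2.14 over all libraries, too low to compare. The division into these blocks was made after the bins were seen.

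Per bin, the authors' deposited DEXSeq tables test whether a bin's share of its gene changed. For SQSTM1 they called 5 of 29 bins in CGG vs CTL, 4 of 29 in GFP_TRA vs CTL, 1 of 29 in siTRA vs CTL and 4 of 28 in CGG_siTRA vs CTL, where the tables' backgrounds over all genes were 2.0%, 1.32%, 1.83% and 3.87% of bins. Bins of a gene that share reads are not independent. The upstream bin E002 (179806408 to 179806591) read 14.4 ± 4.02 in CTL and 18.1 ± 4.36, 14.2 ± 2.16, 11.7 ± 1.33 and 15.6 ± 1.93 in CGG, GFP_TRA, siTRA and CGG_siTRA (SD, n = 3). While its gene rose, this bin stayed near its CTL level, and the authors' deposited tables give log2 changes of its relative use of -2.14 (adjusted p = 1.94e-07), -2.31 (1.13e-08), -2.31 (4.66e-07) and -1.93 (3e-06) in that order, for SQSTM1 against CTL by DEXSeq.

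Another pair of SQSTM1 bins, E021 and E022 (179822485 to 179822957, next to each other), lay at 1.96 times CTL in CGG, 2.56 in GFP_TRA, 3.58 in siTRA and 4.34 in CGG_siTRA. Together they read 50.5, 47.4 and 42.0 in CTL and 81.7, 103.3 and 89.4 in CGG. In siTRA they read 180.8, 251.1 and 69.3, and in CGG_siTRA 204.0, 286.5 and 116.0. The knockdown libraries spread widely, and library c of siTRA lay below all 3 CGG libraries. The authors' deposited tables give E022 a log2 change in relative use of -1.62 in CGG vs CTL (adjusted p = 6.49e-09) and 1.46 in CGG_siTRA vs CGG (adjusted p = 0.000288). For E021 they give -1.35 (adjusted p = 3.27e-06) and 1.59 (adjusted p = 0.0197). In siTRA vs CTL neither was called (adjusted p = 0.966 for E021 and 0.786 for E022, DEXSeq). These bins held under 1% of the SQSTM1 count in every group (0.208% in CGG to 0.602% in CGG_siTRA).

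**Figure D3:**
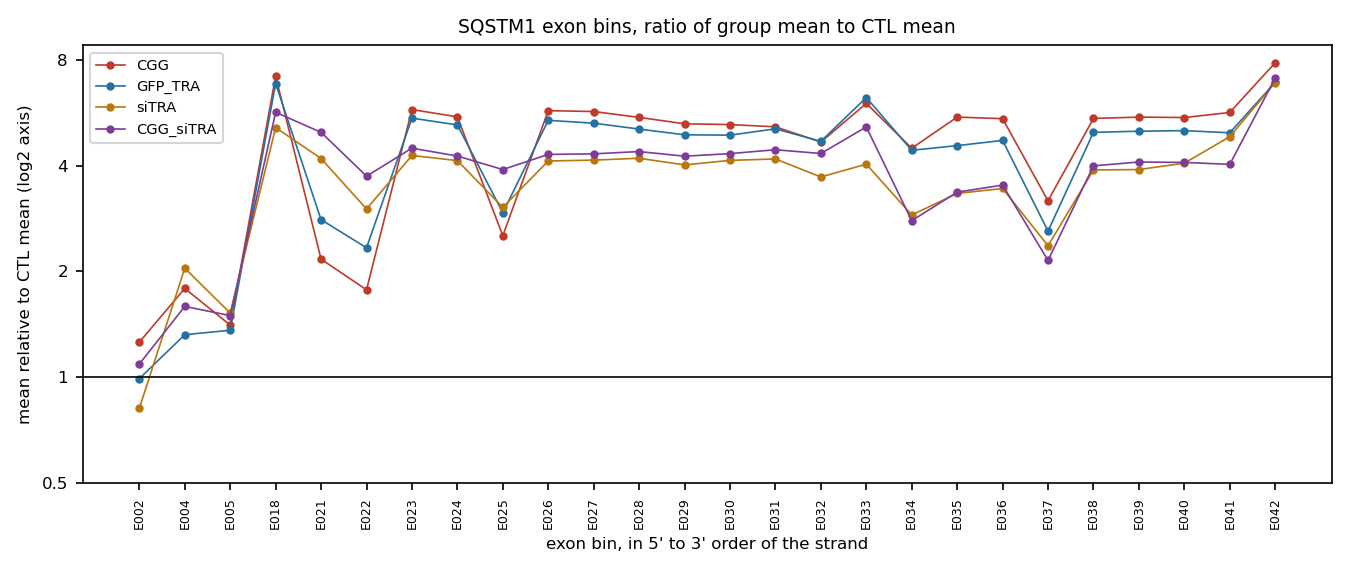
Ratio of the group mean to the CTL mean (vertical axis, log2 scale) for the SQSTM1 bins with a mean normalised count of at least 10, in 5′ to 3′ order. The 3 upstream bins E002, E004 and E005 lie near 1 to 2, most others between 3 and 8, and E021 and E022 are lower in CGG than in the groups with the knockdown.

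Among the autophagosome genes, MAP1LC3B (ENSG00000140941.12), which encodes the membrane-attached LC3B, read 1515, 1283 and 1272 in CTL. In CGG it read 1880.4, 2331 and 2023, in GFP_TRA 2018, 1909 and 1939.5, in siTRA 1801, 2065 and 2034, and in CGG_siTRA 1842, 2251 and 2259. Every treated library was above every CTL library, while the treated groups overlapped one another. The log2 changes against CTL were 0.64 (SE 0.10, adjusted p = 0.000108), 0.51 (SE 0.10, adjusted p = 0.000736), 0.60 (SE 0.10, adjusted p = 0.000114) and 0.77 (SE 0.10, adjusted p = 1.05e-05) in the same order of groups, by edgeR with Benjamini-Hochberg adjustment.

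GABARAPL1 (ENSG00000139112.10), a member of the GABARAP branch of the same protein family, read 7439, 7333 and 6588 in CTL. It read 10087, 9656 and 9628 in CGG, 8906, 8784 and 10198 in GFP_TRA, 8323, 9674 and 8077 in siTRA, and 7798, 8974 and 9599 in CGG_siTRA. All treated libraries were above CTL, by the narrowest margin for library a of CGG_siTRA. Against CTL the log2 changes of GABARAPL1 came to 0.48 (SE 0.08, adjusted p = 0.000185), 0.37 (SE 0.08, adjusted p = 0.00173), 0.35 (SE 0.08, adjusted p = 0.00192) and 0.43 (SE 0.08, adjusted p = 0.000415, edgeR). Both MAP1LC3B and GABARAPL1 have close relatives or copies in the genome, and how the counting treated reads that fit more than 1 place is not given in the sources used here, so part of these counts may belong to such copies.

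WIPI1 (ENSG00000070540.12), which binds the lipid PI3P on the forming membrane, read 1206, 1133 and 1254 in CTL. It read 1737, 2066 and 1977 in CGG and 1606, 1659 and 1873 in GFP_TRA. It read 1474, 1727 and 1690.0 in siTRA and 1658, 1613 and 1655 in CGG_siTRA. Again no treated library reached down to CTL. The log2 changes were 0.71 (SE 0.09, adjusted p = 8.5e-06), 0.50 (SE 0.09, adjusted p = 0.000283), 0.50 (SE 0.09, adjusted p = 0.000159) and 0.58 (SE 0.09, adjusted p = 5.12e-05, edgeR). When only the bin with the highest count stood for the gene, WIPI1 in CGG_siTRA vs CTL had a log2 change of 0.35 and was no longer called (adjusted p = 0.138, edgeR).

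Few single bins of these genes were called in the authors' deposited tables. The last bin of MAP1LC3B (E025, chromosome 16, 87403779 to 87404779, plus strand) read 136 ± 6.3 in CTL, 193 ± 12.3 in CGG, 179 ± 6.27 in GFP_TRA, 187 ± 42.2 in siTRA and 143 ± 5.8 in CGG_siTRA (SD, n = 3). Of the treated group means, that of CGG_siTRA was nearest to CTL, although library c of siTRA read 142.5 as well. Its log2 change in relative use was -0.60 in CGG_siTRA vs CTL (adjusted p = 9.05e-06) and -0.48 in CGG_siTRA vs CGG (adjusted p = 0.00152), in the authors' deposited tables. For GABARAPL1 bin E042 (chromosome 12, 10221853 to 10221908, plus strand) they give 0.25 in CGG_siTRA vs CGG (adjusted p = 0.00071). For WIPI1 bin E006 (chromosome 17, 68421514 to 68421684, minus strand) they give -0.61 in GFP_TRA vs siTRA (adjusted p = 0.0253). Across all members they called 6 of 199 bins in CGG_siTRA vs CGG and 1 of 229 in GFP_TRA vs siTRA, shares near the backgrounds of 3.34% and 0.595%.

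ULK1 (ENSG00000177169.9; chromosome 12, 131894651 to 131923167, plus strand), the kinase that starts autophagosome formation, read 2539, 2479 and 2537 in CTL. It read 2107, 2308 and 2369 in CGG and 2305, 2409 and 2028 in GFP_TRA. It read 2578, 1989.7 and 2387 in siTRA and 2357, 3049 and 2606 in CGG_siTRA. All libraries of CGG and GFP_TRA lay below CTL, those of siTRA and CGG_siTRA on both sides. None of these differences passed the test, and the share of all genes with such a separation below CTL is not given here. The log2 values were -0.13 (SE 0.11, adjusted p = 0.42), -0.18 (SE 0.11, adjusted p = 0.244), -0.05 (SE 0.11, adjusted p = 0.74) and 0.21 (SE 0.11, adjusted p = 0.162, edgeR). In siTRA the sign of the value turned to 0.06 without library b.

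TFEB (ENSG00000112561.17; chromosome 6, 41683978 to 41736259, minus strand), the transcription factor of lysosomal and autophagy genes, had the lowest counts of the members. It read 900.8, 759 and 685 in CTL, 864, 823 and 831 in CGG, and 988, 907 and 837 in GFP_TRA. In siTRA it read 846, 684 and 950.0, and in CGG_siTRA 861, 823 and 973. Its groups overlapped throughout, with CTL itself spread by library a. The log2 values were 0.13 (SE 0.13, adjusted p = 0.502), 0.21 (SE 0.13, adjusted p = 0.23), 0.15 (SE 0.13, adjusted p = 0.378) and 0.30 (SE 0.13, adjusted p = 0.0751, edgeR). Without library a of CTL the value for CGG_siTRA was 0.41 and passed (adjusted p = 0.032, edgeR). Without library b of siTRA, the lowest of its group, the value for siTRA was 0.28 (adjusted p = 0.0591, edgeR). RNA levels say nothing of where the TFEB protein lies in the cell. The authors' deposited tables called no bin of ULK1 or TFEB in any of the 6 comparisons, in which they called 0.595% to 3.87% of all bins.

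LAMP1 (ENSG00000185896.10), an abundant glycoprotein of the lysosomal membrane, rose by the smallest amount of the called members. It read 16076, 16068 and 15855 in CTL. It read 18163, 18902 and 18386 in CGG and 18407, 18834 and 17289 in GFP_TRA. It read 19005, 17290.2 and 18581 in siTRA and 17336, 18855 and 19066 in CGG_siTRA. The 3 CTL libraries agreed closely, and every treated library was above them. The log2 changes were 0.23 (SE 0.06, adjusted p = 0.0103), 0.17 (SE 0.06, adjusted p = 0.0455), 0.26 (SE 0.06, adjusted p = 0.0031) and 0.33 (SE 0.06, adjusted p = 0.000535, edgeR). The call in GFP_TRA did not hold without any 1 of CTL libraries a, b or c or GFP_TRA libraries a or b (adjusted p from 0.114 to 0.202, edgeR). With the highest bin in place of the sum, LAMP1 was called in CGG_siTRA alone, with adjusted p of 0.0884, 0.347 and 0.0766 in CGG, GFP_TRA and siTRA.

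A bin near the 3′ end of LAMP1 moved apart from its gene in the authors' deposited tables. E015 (chromosome 13, 113322595 to 113323430, plus strand) read 2483 ± 55.0 in CGG and 2893 ± 241 in CGG_siTRA (SD, n = 3), and its relative use has a log2 change of 0.25 there (adjusted p = 0.00263, DEXSeq). Its siTRA libraries read 2973, 3525 and 2710.3, with library b the highest. For bin E009 of LAMP1 (113321404 to 113321470) the authors' deposited tables give -0.11 in CGG_siTRA vs CTL (adjusted p = 0.0257).

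CTSD (ENSG00000117984.13), the aspartic protease cathepsin D of the lysosomal lumen, was counted in a group of 3 overlapping gene IDs on chromosome 11, 1732410 to 1764573, minus strand. The group read 34911, 36556 and 35890 in CTL and 67407, 75512 and 73120.0 in CGG. It read 61083, 57536 and 51774 in GFP_TRA, 70280.0, 46578 and 73967 in siTRA, and 63572, 68049 and 70625 in CGG_siTRA. All treated libraries lay above CTL, and library b of siTRA was far below the other libraries of its group. The log2 changes were 1.03 (SE 0.13, adjusted p = 1.05e-05), 0.65 (SE 0.13, adjusted p = 0.00086), 0.90 (SE 0.13, adjusted p = 2.5e-05) and 1.04 (SE 0.13, adjusted p = 6.58e-06, edgeR). Without library b the value in siTRA was 1.09 (adjusted p = 2.01e-09, edgeR).

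The bins of the CTSD group fell into parts that rose by different amounts. The 47 bins from 1752752 to 1764573 rose to 2.003 times CTL in CGG, 1.58 in GFP_TRA, 1.77 in siTRA and 1.87 in CGG_siTRA, and held over 99% of the count in each group. The other 15 bins, 1732410 to 1750580, together held 120 ± 27.6 in CTL, 565 ± 76.3 in CGG, 383 ± 25.02 in GFP_TRA, 590 ± 67.8 in siTRA and 645 ± 83.3 in CGG_siTRA (SD, n = 3). These are 4.70, 3.19, 4.91 and 5.37 times CTL, and no treated library reached down to CTL. Which of the 3 IDs these bins belong to is not recorded in the tables, so the rise of the lower-coordinate bins is not assigned to CTSD. With only the 47 bins counted, an alternative added after seeing the data, the log2 changes were 1.03, 0.65, 0.89 and 1.03, and all passed (adjusted p from 7.58e-06 to 0.000961, edgeR).

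The authors' deposited tables called 8 of 39 CTSD bins in CGG vs CTL, 8 of 41 in GFP_TRA vs CTL, 6 of 39 in siTRA vs CTL and 9 of 39 in CGG_siTRA vs CTL. The bins with the smallest adjusted p lay in the lower-coordinate part, which is not assigned to CTSD. E004 (1735213 to 1735429) read 29.2 ± 9.33 in CTL and 139 ± 11.1 in CGG_siTRA (SD, n = 3). For this comparison the authors' deposited table gives a log2 change in relative use of 1.33 (adjusted p = 4.53e-12, DEXSeq). E006 (1747667 to 1747746) went from 18.2 ± 3.91 to 94.6 ± 7.92 (log2 1.47, adjusted p = 2.05e-10, DEXSeq) and E008 (1747757 to 1747929) from 14.3 ± 4.61 to 87.4 ± 13.6 (log2 1.69, adjusted p = 1.82e-10, DEXSeq).

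**Figure D4:**
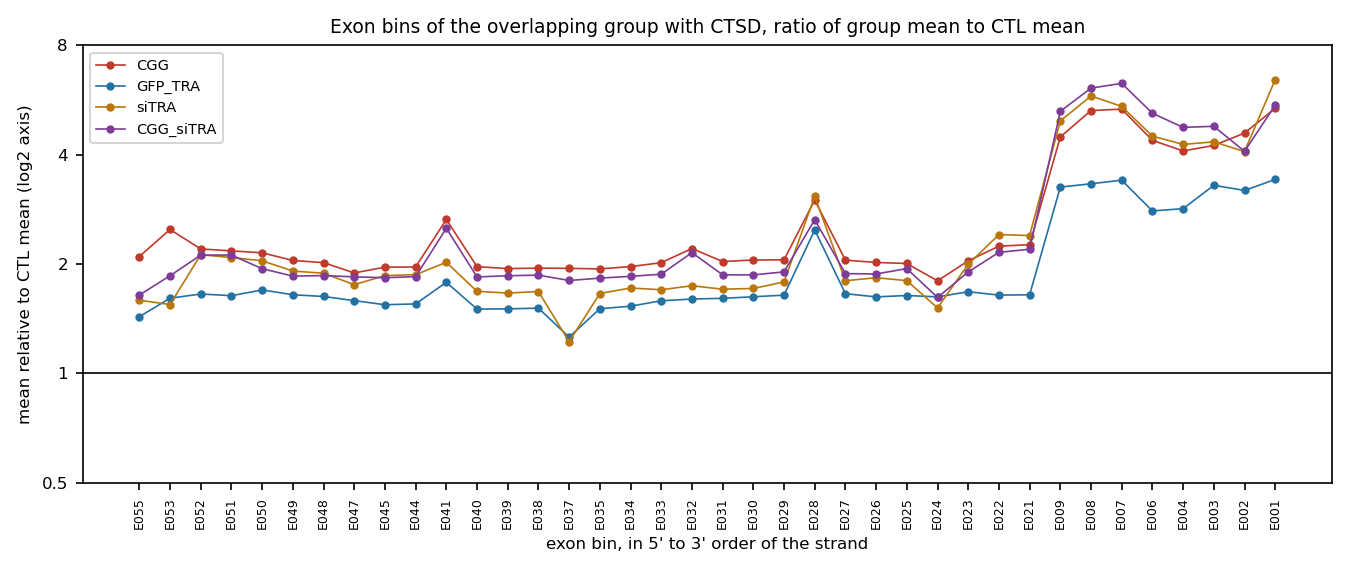
Ratio of the group mean to the CTL mean (vertical axis, log2 scale) for bins with a mean normalised count of at least 10 in the overlapping group that holds CTSD, in 5′ to 3′ order. Most bins lie near 2 (near 1.6 in GFP_TRA), and the last 8, E009 to E001, lie between 2.80 and 6.44.

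Between CGG_siTRA and CGG, which differ by the knockdown and its delivery, SQSTM1 and ULK1 lay close to the threshold, on either side of it depending on the setting. The other members were not called by edgeR or DESeq2. In CGG_siTRA vs CGG 0 of 8 members were called by edgeR, with 10.2% of all genes called, 2 members (SQSTM1 and ULK1) had an unadjusted p under 0.05, and DESeq2 called those 2. SQSTM1 was lower in CGG_siTRA, with no overlap of libraries, at a log2 difference of -0.29 (SE 0.09, adjusted p = 0.0501, edgeR). It passed under all 7 other methods tried, with an adjusted p of 0.0198 in DESeq2, 0.00298 in limma and, in edgeR, 0.00313 with the authors' scaling, 0.0298 with the highest bin, 0.0455 with only the groups compared, 0.0469 with DESeq2's size factors and 0.0493 with no minimum on counts. The log2 difference was -0.28 to -0.39 in these. With a library left out it passed without library a of CGG (adjusted p = 0.0321) or library b of CGG_siTRA (0.0332), and not without any 1 of the other 4 (0.11 to 0.19, edgeR). ULK1 was higher in CGG_siTRA by 0.34 (SE 0.11, adjusted p = 0.0572, edgeR), with overlapping libraries, and passed in DESeq2 (adjusted p = 0.0219), with only the groups compared (adjusted p = 0.0429, edgeR) and without library a of CGG_siTRA (adjusted p = 0.0301, edgeR). For the other members the log2 difference lay between -0.13 (WIPI1) and 0.18 (TFEB), and that of CTSD was 0.00 (SE 0.13, adjusted p = 0.989, edgeR). Libraries of GABARAPL1 and WIPI1 did not overlap either, both lower in CGG_siTRA (adjusted p = 0.747 and 0.404, edgeR). Overlap was judged on the authors' normalised counts, with which the median log2 change of all genes was -0.093 here. The share of all genes without overlap is not given here.

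The change with the knockdown differed between cells with and without the repeat for 5 of 8 members, by the interaction term, for which edgeR called 19.4% of all genes (9.12% below 0). SQSTM1 rose by a log2 value of 2.08 from CTL to siTRA and lay at -0.29 from CGG to CGG_siTRA, an interaction of -2.37 (SE 0.13, adjusted p = 1.23e-09, edgeR). For CTSD the values were 0.90 and 0.00, and for WIPI1 0.50 and -0.13. CTL, the lowest group for these members, enters the first change and not the second, and CTL is also the group that had neither the repeat nor the siRNA, so the interaction cannot be told apart from the difference between CTL and all treated cells.

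**Figure D5:**
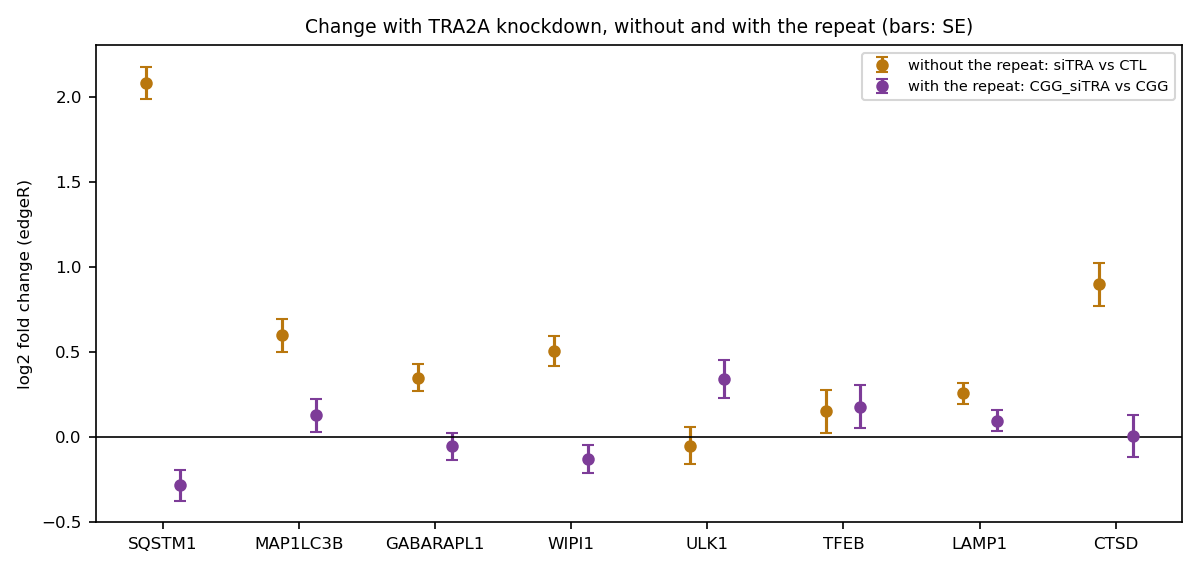
Log2 fold change of each member with the TRA2A knockdown, in cells without the repeat (siTRA vs CTL) and with it (CGG_siTRA vs CGG), with the SE as a bar (edgeR). The points of SQSTM1 lie at 2.08 and -0.29 and those of CTSD at 0.90 and 0.00, while the points of TFEB lie at 0.15 and 0.18.

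Between CGG_siTRA and siTRA, which differ by the repeat and its delivery, 0 of 8 members were called by edgeR. There 1 member (ULK1) had an unadjusted p under 0.05, and DESeq2 called 0 members. Of all genes tested edgeR called 0.0134% there (2 of 14969), DESeq2 called 540, and edgeR called 599 without library a of CGG_siTRA. The log2 differences ran from 0.07 (LAMP1, SE 0.06) to 0.26 (ULK1, SE 0.11, adjusted p = 0.222, edgeR), all above 0, and that of CTSD turned to -0.06 without library b of siTRA.

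Overexpression and knockdown of TRA2A were compared directly in GFP_TRA vs siTRA, where edgeR called 31.6% of all genes and 1 of 8 members. SQSTM1 was higher in GFP_TRA by a log2 value of 0.25 (SE 0.09, adjusted p = 0.0446, edgeR), with no overlap of libraries. For this comparison the share of all genes without overlap is not given, so the lack of overlap adds nothing to the test. The call was lost without library a, b or c of GFP_TRA (adjusted p = 0.2, 0.064 and 0.0973, edgeR) and without library a or b of siTRA (adjusted p = 0.0789 and 0.235, edgeR). It was also lost in edgeR with DESeq2's size factors (adjusted p = 0.0501), with no minimum on counts (0.0551) and with only the groups compared (0.126), and it was kept in DESeq2. CTSD lay at -0.24 (SE 0.13, adjusted p = 0.153, edgeR) with all libraries. Without library b of siTRA it was lower in GFP_TRA by -0.45 (adjusted p = 8.99e-05, edgeR), and LAMP1, at -0.09 with all libraries, was lower by -0.16 (adjusted p = 0.0395, edgeR). With the authors' scaling, genes called in this comparison split into 3660 higher and 1555 lower, where TMM gave 2522 and 2202.

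Further pairs of treated groups were compared after the data were seen, with the main settings and all libraries only. In CGG vs GFP_TRA edgeR called 8.43% of all genes and 0 of 8 members, 2 of which (WIPI1 and CTSD) had an unadjusted p under 0.05, and CTSD, with no overlap of libraries, lay at 0.38 (SE 0.13, adjusted p = 0.0752, edgeR). In CGG_siTRA vs GFP_TRA it called 25.5% of all genes and 2 of 8 members, both higher in CGG_siTRA. These were ULK1 at 0.39 (SE 0.11, adjusted p = 0.015, edgeR), with overlapping libraries, and CTSD at 0.38 (SE 0.13, adjusted p = 0.0328, edgeR), without overlap. MAP1LC3B and LAMP1 had an unadjusted p under 0.05 there and were not called (adjusted p = 0.0663 and 0.0723, edgeR). SQSTM1 libraries, lower in CGG_siTRA, did not overlap either, and SQSTM1 was not called (adjusted p = 0.292, edgeR). Shares of all genes without overlap are not given for these pairs, so the lack of overlap is not read as a result.

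Per kilobase of counted exon bins, the members' order of level changed with treatment. In CTL the normalised count per kilobase was 6352 ± 148 for the CTSD group, 4716 ± 37.5 for LAMP1, 2493 ± 158 for GABARAPL1, 1993 ± 54.1 for SQSTM1, 617 ± 61.9 for MAP1LC3B, 583 ± 30.6 for WIPI1, 398 ± 5.48 for ULK1 and 338 ± 50.4 for TFEB (SD, n = 3). MAP1LC3B and WIPI1 overlapped within their spread. In CGG SQSTM1 reached 10918 ± 889, above LAMP1 at 5447 ± 112 and next to the CTSD group at 12777 ± 737 (SD, n = 3). Reads that cross bin borders add to more than 1 bin, so these levels also depend on how finely a gene is cut.

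Over the 5 group means the called members ran alike, as a description with no test. The member most like SQSTM1 was LAMP1 (Pearson r of log2 means 0.981 over 5 groups), MAP1LC3B was most like LAMP1 (0.994), GABARAPL1 and WIPI1 were most like each other (0.994), and CTSD was most like MAP1LC3B (0.98). TFEB was most like SQSTM1 (0.765), and ULK1 had no positive r with any member (highest -0.139, with TFEB). All these values share the same libraries and lean on the CTL group.

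The authors' deposited EventPointer tables, the only data on CGG_TRA, listed 1 splicing event in a member among 6311 events each. It is an alternative 3′ splice site in CTSD (chromosome 11, 1753880 to 1753994). Its authors' p-values lay between 0.836 and 1.0 in the 5 tables, with a change in percent spliced in of 0 in each. These values do not tell whether the event could have shown a change, so nothing is concluded from it about CGG_TRA.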

How the data were processed

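Per the submitters' processing notes, cutadapt 1.14, STAR 2.5.2 and the human build GRCh38.p10 were used. The cells are from a monkey, so reads of diverged exons can be lost, more in some genes than in others. The exon bin counter is not given in the sources used here. Counts per exon bin were deposited by the authors in 6 DEXSeq tables, together with p-values, adjusted p-values and, per the file headers, log2 changes of how much a bin is used. The authors also deposited a normalised signal per bin, scaled by 1 factor per library, and EventPointer tables, whose values for an event are a p-value, the z score and the fraction by which splicing changed.

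Columns were assigned to groups by the names of the tables, and libraries are lettered because column numbers could not be tied to sample titles. When scaled back, 100.0% of the normalised values came out as whole reads (tolerance 0.1 of a read). Counts of 431444 bins were summed to 19997 genes or overlapping groups (1905 groups), after 1623 cells were filled from those reads. Bins outside the DEXSeq tables held 1.56% to 2.1% of a library's reads. Genes whose normalised count reached 10 in at least 3 libraries were tested with edgeR 4.0.16 (R 4.3.3) over all 15 libraries of 5 groups, with TMM scaling, 1 mean per group and Benjamini-Hochberg adjustment. Alternatives were DESeq2 1.42.0, its size factors, the authors' factors, limma 3.58.1 on log2 of the normalised value plus 1, no minimum, the highest bin, only the groups compared, and each library left out. For some CGG_siTRA samples the title names a round, which no column carries. Library totals over bins were 121142115 to 203957869 counts, and errors given are those between libraries.

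The members and lists were chosen with earlier results of these data known. All 8 members were tested in every comparison, and each is given against CTL. Between treated groups some members are given only by a range or a count. At most 3 exon bins per member are named, by smallest authors' adjusted p under 0.05, with a mean of 10 or more in a group. Bins outside that rule were chosen after their values were seen. Symbols come from the list of members. The reference table given paired 0 of 23133 single Ensembl IDs, so a wider list of autophagy and lysosome genes and the marker genes of the cell line were not analysed here.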

Additional observations from a re-analysis of the deposited data

Results flagged for a closer look

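For 5 members the change with the TRA2A knockdown differed between cells without and with the repeat, by the interaction term of edgeR with Benjamini-Hochberg adjustment, among 19.4% of all genes tested. All 5 were called below 0, as were 9.12% of genes tested. CTL enters only the change without the repeat. The interaction therefore cannot be told apart from the difference between CTL and all treated cells. The interaction was -2.37 for SQSTM1 (adjusted p = 1.23e-09, edgeR), -0.89 for CTSD (0.00195), -0.63 for WIPI1 (0.00131), -0.47 for MAP1LC3B (0.0231) and -0.40 for GABARAPL1 (0.0163). SQSTM1 read 8031 ± 219 in CTL, 32481 ± 3569 in siTRA, 43946 ± 3582 in CGG and 33607 ± 2934 in CGG_siTRA, and CTSD read 35786 ± 827, 63608 ± 14863, 72013 ± 4165 and 67416 ± 3569 (normalised counts, SD, n = 3). Between CGG_siTRA and CGG edgeR called none of the 5, though SQSTM1 (adjusted p = 0.0501) passed in DESeq2 (0.0198) and in limma (0.00298). MAP1LC3B lost its call without CTL library b (adjusted p = 0.064, edgeR) or c (0.0575), CGG library b (0.0713), siTRA library c (0.0501) or CGG_siTRA library a (0.0508). Without siTRA library b, LAMP1 had an interaction of -0.22 (adjusted p = 0.0419, edgeR), and ULK1 one of 0.49 (0.0356) without siTRA library a and 0.47 (0.0424) without CGG_siTRA library a.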

How the results depend on the processing

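No paired analysis was possible because the count columns carry numbers of their own that match no title of a sample, so no fit with a replicate block was run. The alternative with the authors' factors and that with only the higher-coordinate CTSD bins were chosen after seeing the data. Of 316 alternative values for the 24 rises over CTL, 306 kept the call, 10 lost it (9 of LAMP1 and 1 of WIPI1) and 0 reversed; over all 888 alternative values of members 34 changed sign, 0 of them called, and 1 came to 0.00 (WIPI1 in GFP_TRA vs siTRA without GFP_TRA library b). SQSTM1 kept adjusted p at or under 1.44e-06 against CTL, with log2 changes from 1.99 to 2.54. The number of genes called moved by more than 1.5 times in CGG_siTRA vs CGG (1522) to 2374 with limma and 2336 with the authors' factors, and to between 944 and 1706 with a library left out (944 without CGG_siTRA library b, 1012 and 1007 without CGG library a or c). In CGG_siTRA vs siTRA it moved from 2 to 540 with DESeq2, 5 with limma and 1 with only the groups compared, and to between 2 and 599 with a library left out (599 without CGG_siTRA library a, 8 without c). With only the groups compared it was 6275 in place of 3622 for CGG vs CTL and 2950 in place of 4724 for GFP_TRA vs siTRA, and the interaction gave 1832 in place of 2897 with the highest bin. The authors' factors gave 297 higher and 2039 lower in CGG_siTRA vs CGG, where TMM gave 619 and 903, and limma gave 288 and 2086. The cause was not tested for any of these. Signs reversed with limma and with the authors' factors for LAMP1 (-0.0061 and -0.005) and CTSD (-0.0949 and -0.0952) in CGG_siTRA vs CGG, WIPI1 in GFP_TRA vs siTRA (0.0717 in both) and the TFEB interaction (-0.0041 and -0.0071). With the highest bin they reversed for ULK1 (0.1319) and TFEB (-0.0303) in siTRA vs CTL, TFEB (-0.109) and CTSD (-0.0094) in CGG_siTRA vs CGG, GABARAPL1 (-0.0168) and WIPI1 (-0.1711) in CGG_siTRA vs siTRA, GABARAPL1 (-0.0981) and WIPI1 (0.1246) in GFP_TRA vs siTRA and the TFEB interaction (-0.0787). With a library left out, the values that changed sign ranged from -0.1431 to 0.0608 (ULK1, siTRA vs CTL), -0.1066 to 0.1498 (TFEB interaction), -0.1021 to 0.0142 (GABARAPL1, CGG_siTRA vs CGG), -0.0388 to 0.0373 (CTSD, CGG_siTRA vs CGG), -0.0608 to 0.07 (GABARAPL1), -0.0849 to 0.0197 (WIPI1) and -0.0886 to 0.163 (TFEB) in GFP_TRA vs siTRA, and -0.0615 to 0.2664 (CTSD, CGG_siTRA vs siTRA).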
